A study of Oncorhynchus mykiss with 24 samples.

Results

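Liver mRNA levels of wild-domesticated hybrid rainbow trout (W/D) were compared with those of wild trout of the same age (Wa), which sets fish with 1 domesticated parent beside fish with none. The members of the comparison were chosen from the sample labels alone, as the 6 arrays that carried liver RNA of a W/D fish and the 6 that carried liver RNA of a Wa fish, 12 of the 24 arrays in all. The W/D fish were first-generation offspring of a domesticated female, from a commercial strain of Campbell Lake Trout Farms that had been selected for fast growth, and a wild male of the Pennask Lake strain. The Wa fish were offspring of a wild Pennask Lake female and that same wild male. The other arrays held 6 samples of domesticated trout (D), from the same domesticated female and a domesticated male, and 6 wild fish that were a year older and matched to D in body size (Ws), taken from randomly mated crosses. All 4 groups were reared under the same culture conditions on artificial diets fed to satiation, and were unfed for a day before the liver was taken. D and Ws entered the fit and are given where they place a W/D level.

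The liver makes most of the proteins found in blood plasma, among them complement, clotting factors, carrier proteins and, in fish, several lectins, which are proteins that bind the sugars on cell surfaces. It also takes up nucleosides, burns fatty acids and attaches glutathione or glucuronic acid to compounds that are to be excreted. A first-generation hybrid carries 1 nuclear genome copy of each parental strain. A transcript of a nuclear gene can therefore come from either copy, and each oligo for such a gene gave 1 ratio for both copies together.

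On every array the Cy5 channel held RNA of a single fish and the Cy3 channel a pool of 6 Ws fish, so that every level below is a log2 ratio of the fish over that pool and a level of 0 equals the pool. Of 43689 oligos, 8764 (20.1%) passed the filter on low signals and were tested. Median Cy5 signals ranged between 206.2 and 233.3 in W/D, between 214.2 and 246.3 in D, between 197 and 208.5 in Wa and between 198.3 and 203.8 in Ws, against local backgrounds with medians of 123 to 134. Between 35.4% and 46.2% of the oligos on a W/D array and between 38.5% and 42.7% on a Wa array exceeded the mean local background by 2 of its standard deviations, which is called above background here. The most alike pair of arrays correlated at 0.642 across oligos, so that no array was a copy of another. W/D and Wa were 1 cross each, and the spread between fish is a spread within 1 family. The mother was domesticated for W/D and wild for Wa, so that a part of the mother cannot be told apart from the domesticated genome copy. A difference between these 2 families cannot be told apart from a difference between the strains, and since every slide held the groups in the same order, group and slide position cannot be told apart either. By the paper, the families were reared individually, so that group and separate rearing cannot be told apart. Body length and weight at sampling also differed among the groups, and hybrids grew at a rate between those of the parental strains. Group therefore cannot be told apart from body size or developmental stage at the same age. In pieces of liver, a change in the share of a cell type and a change of RNA per cell cannot be told apart.

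W/D differed from Wa for 81 oligos, 0.924% of those tested, by 2-fold or more with a Benjamini-Hochberg adjusted p not above 0.05. Of these, 55 (0.628%) were higher in W/D and 26 (0.297%) were lower. Without Wa replicate 4, the numbers were 58 in all, 41 higher and 17 lower. The adjusted p alone was passed by 108 oligos, 73 higher and 35 lower, and an unadjusted p of at most 0.05 by 1102. Over all tested oligos the median log2 fold change was -0.001, and among the 81 the median size was 1.5 with a median standard error of 0.3. Of the 81, 70 had a value in all 12 fish, and for 40 of these 70 the ranges of W/D and Wa did not overlap. Among all 7714 tested oligos with a value in all 12 fish, 96 (1.24%) had no overlap. The Cy3 channel held the same pool on every array. There the median difference of W/D minus Wa was 0.05 for the higher and 0 for the lower oligos, against 1.77 and -1.29 in the Cy5 channel. In 7 of the 81 the Cy3 difference exceeded 0.5 in size, and these are named where they occur.

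**Figure D1:**
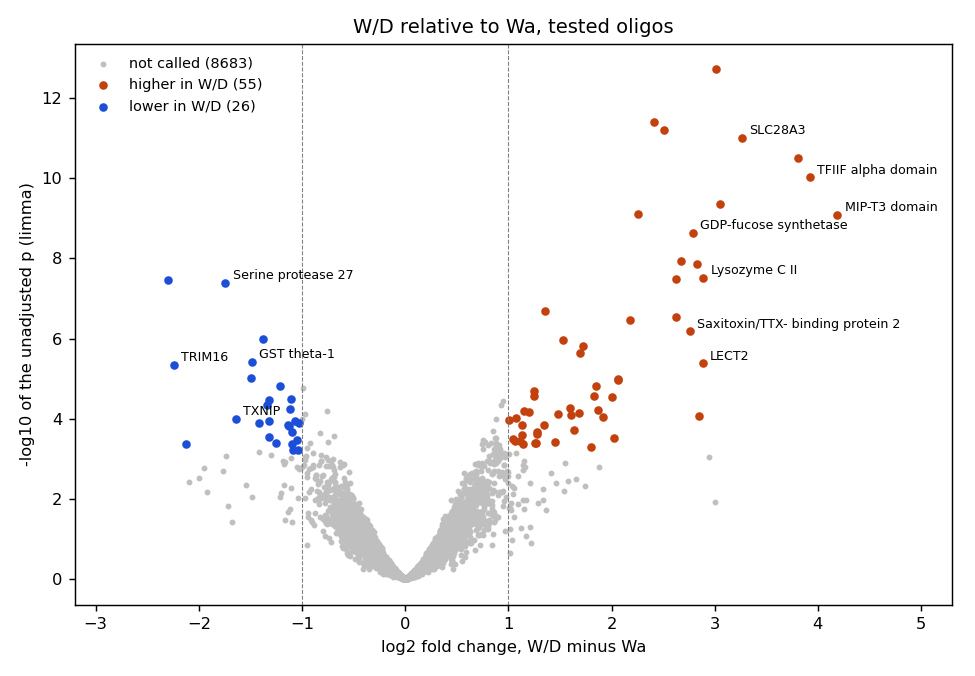
Log2 fold change of W/D minus Wa (horizontal) against -log10 of the unadjusted p from limma (vertical) for the 8764 tested oligos, with dashed lines at a 2-fold change. The 55 called higher oligos reach a log2 fold change of 4.19, and the 26 called lower oligos reach -2.30.

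A description, which for some was only UNKNOWN, was available for 486 spots. Each had been listed because it differed in some pairing of the groups. Of these spots 436 were tested, and 66 of them were called (15.1%), so that a count of called members in a group of named spots has to be read against 15.1% and not against 0.924%. The description was UNKNOWN for 7 of the called spots, and 15 more had no description. Several spots often shared a description. Salmonid genomes carry many duplicated genes, and whether such spots measured 1 transcript or near-identical copies was not tested. Fold changes and adjusted p below are from limma, n = 6 fish per group unless a smaller number is given.

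The mRNA of solute carrier family 28 member 3, which carries nucleosides into cells together with sodium, was higher in W/D at both of its spots. At C216R135 the W/D fish had a lowest level of 2.47, a median of 3.49 and a highest of 3.64, against -0.76, 0.20 and 1.09 in Wa fish. Every W/D fish lay above every Wa fish, and on each of the 6 slides the W/D fish exceeded the Wa fish beside it by 2.15 to 4.20. The log2 fold change was 3.26 ± 0.31 (SE, adjusted p = 2.15e-08). At C055R039 it was 3.02 ± 0.24 (adjusted p = 1.72e-09), with the groups again apart. The W/D signals were above background on all 6 arrays at both spots, whereas those of Wa were so on 2 of 6 at the first and 1 of 6 at the second. C055R039 is also a spot at which the pool in the Cy3 channel differed, by 1.05, beside 4.07 in Cy5. The other 10 tested spots for nucleoside transport and salvage were not called, with log2 fold changes between -0.74 for cytidine deaminase, which turns cytidine into uridine, and 0.63 for putative deoxyribose-phosphate aldolase, which splits deoxyribose phosphate.

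Both fucolectins, which in eels are secreted lectins that bind fucose, were higher in W/D, and so was the enzyme that completes the synthesis of GDP-fucose. Fucolectin-4 (C224R024) had 2.17, 2.53 and 3.34 as lowest, median and highest level in W/D, against -0.10, 0.29 and 0.47 in Wa. No fish of one group reached the range of the other, and the log2 fold change was 2.41 ± 0.22 (adjusted p = 1.8e-08), with a signal above background on 1 of 6 Wa arrays. Fucolectin-6 (C220R118) had 1.48, 1.80 and 2.37 in W/D and -1.12, -0.39 and 0.47 in Wa, a log2 fold change of 2.26 ± 0.26 (adjusted p = 8.1e-07). Both lectins were higher in the W/D fish on every slide, by 1.77 to 3.14 for fucolectin-4 and by 1.79 to 2.74 for fucolectin-6. GDP-L-fucose synthetase (C015R047) had 2.61, 2.90 and 3.33 in the 4 W/D fish with a value and -0.63, 0.29 and 1.04 in the 5 Wa fish with a value, the remaining spots being under the quality flag. Its log2 fold change was 2.79 ± 0.31 (adjusted p = 2e-06). The 5 D fish with a value (3.91 to 4.57) lay above all W/D fish at this spot, and W/D minus D was -1.22 (adjusted p = 0.0551). Whether the levels of the enzyme and of the lectins are linked was not tested.

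The largest fold changes belonged to spots that are described by a conserved domain and not by a gene. TFIIF alpha is the large subunit of a general initiation factor of RNA polymerase II, and MIP-T3 is a protein that binds microtubules and the signalling adaptor TRAF3. Whether the transcripts encode either protein is not given by such a description. All 4 TFIIF alpha and both MIP-T3 domain spots were higher in W/D. At C256R062 the TFIIF alpha levels were 0.56, 1.60 and 2.11 in W/D, against -2.67, -2.46 and -2.33 in Wa. The SD was 0.64 over W/D fish and 0.13 over Wa fish, 4 of which were above background, and the log2 fold change was 3.92 ± 0.41 (adjusted p = 1.38e-07). MIP-T3 at C169R119 had 0.56, 1.54 and 2.07 in 4 W/D fish and -3.01, -2.77 and -2.42 in 5 Wa fish, a log2 fold change of 4.19 ± 0.46 (adjusted p = 8.1e-07). At 3 further spots the log2 fold changes were 3.80 (C182R143), 3.05 (C063R163) and 2.67 (C223R094), each with the groups apart. The TFIIF alpha spot C054R169 was above background on no Wa array. It was called higher in W/D (adjusted p = 0.000139), with levels of 0.43, 1.90 and 2.33 in W/D, and no fold change is given since the Wa level was not well above background.

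**Figure D2:**
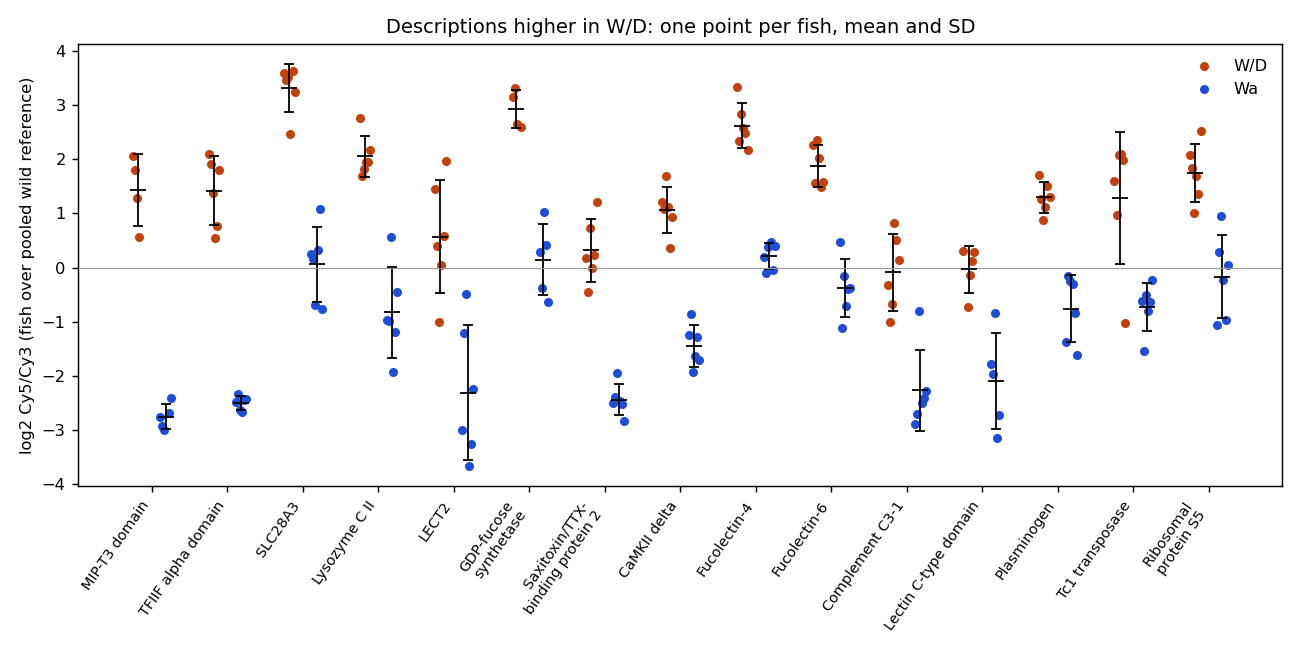
Log2 Cy5/Cy3 of single W/D (left) and Wa (right) fish for the 15 descriptions with the highest called fold change, 1 spot each, with mean and SD bars. The Wa fish of the TFIIF alpha domain spot lie between -2.67 and -2.33, below all of its W/D fish, while 1 W/D fish of the Tc1 transposase spot lies at -1.03 within the Wa range.

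Every called spot for complement and for other secreted defence proteins was higher in W/D. Lysozyme C II, which cuts the cell wall of bacteria, was higher at all 3 of its spots. At C099R149 its levels were 1.69, 1.95 and 2.76 in W/D, against -1.93, -0.98 and 0.57 in Wa, without overlap, and the log2 fold change was 2.89 ± 0.39 (adjusted p = 1.97e-05). The other spots gave 2.83 and 2.62, of which the last (C172R005) also differed by 0.55 in the Cy3 channel. Leukocyte cell-derived chemotaxin 2, known in mammals as a liver protein that attracts neutrophils, was higher at both of its tested spots. At C134R121 the levels were -1.01, 0.49 and 1.96 in W/D and -3.67, -2.62 and -0.50 in Wa. The signal was above background on 4 of 6 Wa arrays. The groups overlapped, the difference was positive on 5 of 6 slides, and the log2 fold change was 2.88 ± 0.50 (adjusted p = 0.00138). At C164R142 it was 2.85 ± 0.63 (adjusted p = 0.0141), and without Wa replicate 4 the adjusted p was 0.0507.

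Complement C3-1, a form of the central complement protein that is cleaved when the cascade is triggered, was higher in W/D at all 3 of its spots. C138R093 had -1.01, -0.09 and 0.83 in W/D, against -2.90, -2.46 and -0.80 in Wa. One Wa fish, at -0.80, stood apart from the other Wa fish and within the W/D range, and the log2 fold change was 2.18 ± 0.34 (adjusted p = 0.00016). The fold changes at the other spots were 1.69 (C262R149, adjusted p = 0.0127) and 2.02 (C097R144, 4 W/D and 5 Wa fish, adjusted p = 0.0333), and C097R144 lost its call when any of 6 of the 12 fish was left out, with an adjusted p of up to 0.107, and in the Cy5 channel alone (0.0679). Complement factor B, a protease of the alternative pathway, passed the adjusted p at less than 2-fold (0.88, adjusted p = 0.0384). Complement factor D gave 0.71 (adjusted p = 0.151) and complement C4-A -0.21 (adjusted p = 0.717).

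A pair of spots described by a C-type lectin domain, which binds sugars with the help of calcium, was higher in W/D. C024R164 had -0.73, 0.12 and 0.31 in 5 W/D fish and -3.15, -1.97 and -0.85 in 5 Wa fish, a log2 fold change of 2.07 ± 0.39 (adjusted p = 0.00308). At C180R033 the fold change was 1.83 (adjusted p = 0.00658), and the lowest W/D fish, at -1.15, lay only just above the highest Wa fish, at -1.17. Galectin-9, a lectin for galactose, was higher at 1 of 3 spots (C070R081, 1.06, adjusted p = 0.0374, and 0.0571 with the slide as a replicate block) and gave 0.89 and 0.96 at the others (adjusted p = 0.058 and 0.0765). Galectin-2 moved the other way and was lower in W/D at both spots. At C259R028 it had -0.65, -0.44 and 0.17 in W/D and -0.25, 1.25 and 1.95 in Wa, a log2 fold change of -1.34 ± 0.28 (adjusted p = 0.00957, and 0.127 in the Cy5 channel alone). Its second spot gave -1.04 (C063R114, adjusted p = 0.0488, and 0.0649 with the replicate block), and lost its call without any of 8 of the 12 fish, as galectin-9 did without any of 6. Of the planned settings, 7 ended the call of this galectin-2 spot and 4 that of galectin-9.

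Plasminogen, the precursor of the protease that dissolves fibrin clots, had 0.88, 1.29 and 1.71 in W/D and -1.62, -0.58 and -0.16 in Wa at C025R084. The groups did not overlap and the log2 fold change was 2.06 ± 0.39 (adjusted p = 0.00308), beside a Cy3 difference of 1.21. Saxitoxin and tetrodotoxin-binding protein 2, named after a pufferfish plasma protein that binds these toxins, had -0.46, 0.20 and 1.22 in W/D and -2.84, -2.49 and -1.95 in Wa. Its log2 fold change was 2.76 ± 0.44 (C265R053, adjusted p = 0.000287), with a signal above background on 3 of 6 Wa arrays. Coagulation factor IX, a clotting protease, passed the adjusted p at less than 2-fold (0.83, adjusted p = 0.0384), and ferritin middle subunit, an iron store, gave 0.81 (adjusted p = 0.217). Markers of hepatocytes separated the groups only when complement C3-1, itself called above, was counted among them. The mean level of 7 tested hepatocyte marker spots lay between 0.03 and 0.72 in W/D fish and between -0.94 and -0.38 in Wa fish. Of the 7, 3 were complement C3-1, and without them the ranges were 0.07 to 1.28 in W/D and 0.01 to 0.54 in Wa, which overlapped. Serum albumin 2, apolipoprotein A-I-2 and apolipoprotein Eb gave 0.93, 0.88 and 0.74 (adjusted p = 0.176, 0.0727 and 0.115), and fibrinogen beta chain -0.51 (adjusted p = 0.637). The part of the hepatocyte share in the differences was not tested.

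Among signalling and nuclear proteins, calcium/calmodulin-dependent protein kinase type II delta chain, a kinase that responds to calcium, was higher in W/D. At C155R079 the levels were 0.37, 1.10 and 1.69 in W/D and -1.93, -1.46 and -0.86 in Wa, a log2 fold change of 2.51 ± 0.22 (adjusted p = 1.84e-08) with all signals above background in both groups. Enhancer of rudimentary homolog was higher by 1.53 (C100R069, adjusted p = 0.000426, and below 2-fold in the deposited ratios, at 0.95) and the linker histone H1.0 by 1.01 (C021R027, adjusted p = 0.016), which lost its call without any of 4 of the 12 fish and under 3 planned settings.

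Of the proteins of translation, all 3 spots of eukaryotic translation initiation factor 3 subunit I, part of the complex that brings mRNA to the small ribosomal subunit, were higher in W/D, by 1.69, 1.60 and 1.26. The adjusted p were 0.00085, 0.0139 and 0.0384, and the second was 0.053 without Wa replicate 4, while the third lost its call without any of 7 of the 12 fish and under 4 planned settings. 40S ribosomal protein S5, of the small ribosomal subunit, had 1.01, 1.76 and 2.52 in W/D and -1.06, -0.10 and 0.95 in Wa. The log2 fold change was 1.92 ± 0.42 (C196R002, adjusted p = 0.0145), with a signal above background on 2 of 6 Wa arrays and a Cy3 difference of 0.95. 60S ribosomal protein L9, of the large subunit, was higher by 1.08 (C170R018, adjusted p = 0.0152, and 0.471 in the Cy5 channel alone, and below 2-fold without W/D replicate 3 or Wa replicate 2), whereas ribosomal proteins S27 and L39 gave -0.97 and -0.94 (adjusted p = 0.0603 and 0.0881).

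Translationally-controlled tumor protein, an abundant protein of growing cells whose own mRNA is regulated at translation, was lower in W/D. Of its 8 tested spots 6 were called, and the other 2 passed the adjusted p at less than 2-fold (-0.97 and -0.92, adjusted p = 0.013 and 0.0384). At C066R160 the levels were -1.41, -1.08 and -0.32 in W/D and -0.01, 0.37 and 0.76 in Wa. No fish overlapped, and the log2 fold change was -1.38 ± 0.23 (adjusted p = 0.000426). Over the 8 spots the log2 fold changes ran between -1.38 and -0.92. The call of C086R090 was lost with the slide as a replicate block (adjusted p = 0.102), and without any of 9 of the 12 fish. The call of C165R159 was lost without any of 4 fish, and that of C204R162 without Wa replicate 4 (adjusted p = 0.0507). With arrays centred on the median in place of loess, none of these 3 spots was called (adjusted p between 0.0503 and 0.128).

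In mitochondria and fatty acid metabolism, single spots were higher in W/D. Brain protein 44, a subunit of the carrier that brings pyruvate into mitochondria, had 1.78, 2.53 and 4.03 in W/D and -0.32, 0.89 and 2.12 in Wa, a log2 fold change of 1.85 (C032R027, adjusted p = 0.00424) with overlapping groups. Brain protein 44-like protein, of the same gene group, was not called at either of its 2 spots (-0.34 and -0.18, lowest adjusted p = 0.52). Peroxisomal 3,2-trans-enoyl-CoA isomerase, which prepares unsaturated fatty acids for oxidation, gave 1.80 (adjusted p = 0.044), but lost its call without any of 8 of the 12 fish and with W/D and Wa alone in the fit (0.0916). Epoxide hydrolase 2, which opens fatty acid epoxides, gave 1.48 at 1 of 2 spots (C099R107, adjusted p = 0.0131, and 0.0595 with W/D and Wa alone in the fit) and 1.29 at the other (adjusted p = 0.231). Outside these topics and in none of the gene groups, the metal-reducing enzyme STEAP4 gave 1.87 (adjusted p = 0.0114). ATP synthase subunit b passed the adjusted p at less than 2-fold (0.88, adjusted p = 0.0425). Lipoprotein lipase, which releases fatty acids from circulating fat, gave -0.98 and -0.56 (adjusted p = 0.0765 and 0.438), and sterol regulatory element-binding protein 1, a regulator of lipid synthesis, -0.38 (adjusted p = 0.648).

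Detoxification and redox enzymes moved in both directions. Glutathione S-transferase theta-1, which joins glutathione to reactive compounds, was lower in W/D at both spots. C202R025 had -2.13, -1.48 and -0.90 in W/D and -0.17, -0.11 and 0.30 in Wa, without overlap, a log2 fold change of -1.49 ± 0.26 (adjusted p = 0.00132). The second spot, C098R049, gave -1.32 (adjusted p = 0.0161, and 0.0507 without Wa replicate 4). UDP-glucuronosyltransferase 2A1, which attaches glucuronic acid, had -1.90, -1.38 and 0.50 in W/D and -0.39, 0.14 and 0.79 in Wa. Its log2 fold change was -1.33 ± 0.32 (C041R060, adjusted p = 0.0333), and leaving out any of 8 of the 12 fish gave an adjusted p between 0.0515 and 0.0852, and 3 planned settings gave one between 0.0521 and 0.128. Thioredoxin-interacting protein, an inhibitor of thioredoxin that also limits glucose uptake, had -0.96, 0.30 and 2.11 in W/D and 0.79, 1.82 and 2.91 in Wa, a log2 fold change of -1.64 ± 0.37 (C066R101, adjusted p = 0.0152). Without Wa replicate 1 its adjusted p was 0.0532, and with W/D and Wa alone in the fit 0.0721. Copper-zinc superoxide dismutase, which removes superoxide, was higher at 1 of 14 spots (1.13, adjusted p = 0.0305, lost without any of 7 of the 12 fish and under 6 planned settings), and the 14 log2 fold changes lay between 0.64 and 1.13. Catechol-O-methyltransferase domain-containing protein 1 was higher by 1.73 at 1 of 2 spots (C177R069, adjusted p = 0.000583, 3 Wa fish with a value) and gave 0.22 at the other. Dehydrogenase/reductase SDR family member 13, an oxidoreductase, was lower by 1.03 on the log2 scale (C168R126, adjusted p = 0.0174), and this call was lost without any of 3 fish and under 2 planned settings.

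**Figure D3:**
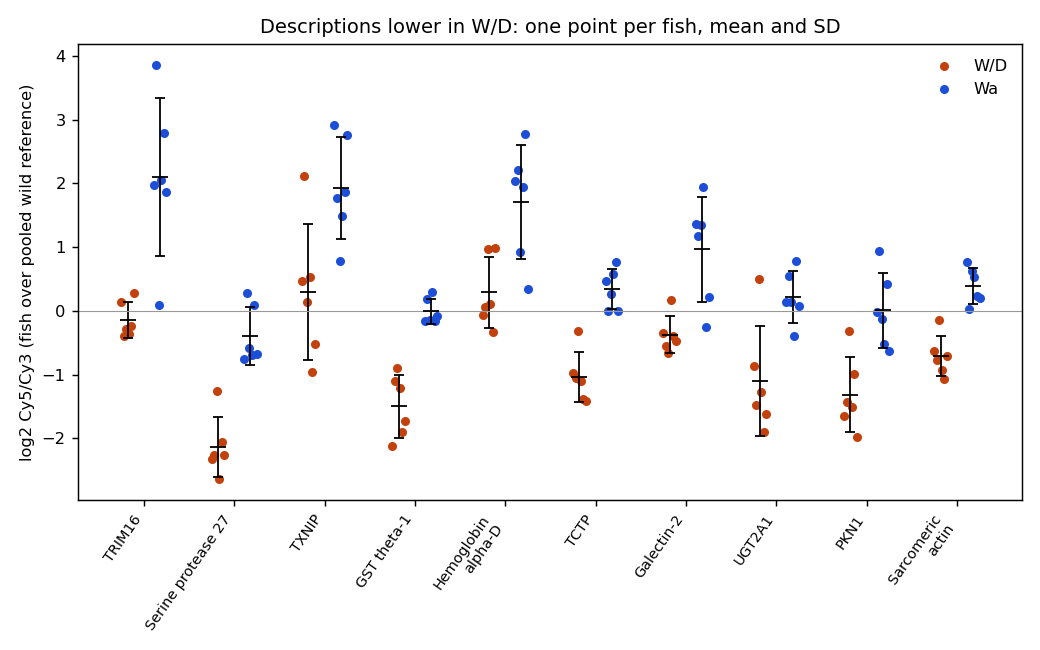
Log2 Cy5/Cy3 of single W/D (left) and Wa (right) fish for the 10 descriptions with the lowest called fold change, 1 spot each, with mean and SD bars. The groups do not overlap for serine protease 27, GST theta-1, TCTP and sarcomeric actin, while the 6 TRIM16 values of Wa spread between 0.08 and 3.86.

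The remaining lower members had varied roles. Serine protease 27, a secreted protease, had -2.64, -2.26 and -1.26 in W/D and -0.75, -0.63 and 0.28 in Wa, a log2 fold change of -1.74 ± 0.24 (C092R028, adjusted p = 2.22e-05). Every W/D fish lay below every Wa fish, with a signal above background on 4 of 6 W/D arrays. Tripartite motif-containing protein 16, of a family of ubiquitin ligases, had -0.40, -0.26 and 0.27 in W/D and 0.08, 2.01 and 3.86 in Wa, a log2 fold change of -2.25 ± 0.40 (C163R098, adjusted p = 0.00145). This spot touches 2 other called spots on the array, C163R097 and C162R098, which were also lower in W/D (-1.25 and -1.50), C163R097 without a call when any of 8 of the 12 fish was left out. No other called spots touched one another, and the 11 other oligos around these 3 differed by between -0.77 and 0.10, with a median of -0.19. At C163R097 and C162R098 the Cy3 pool differed as well, by -0.70 and -1.01. C162R098 (adjusted p = 0.00304) was above background on no W/D array and on 2 of 6 Wa arrays, so that its fold change is uncertain, and it was below 2-fold in the authors' deposited ratios (-0.96) and with the median of the pixels (-0.90). The part of the shared place on the array was not tested.

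Serine/threonine-protein kinase N1, which phosphorylates other proteins, had -1.98, -1.47 and -0.32 in W/D and -0.64, -0.07 and 0.94 in Wa, a log2 fold change of -1.32 ± 0.27 (C193R116, adjusted p = 0.00769). Without background correction it was -0.99, below 2-fold. Sarcomeric or cardiac alpha actin, of muscle filaments, was lower at 1 of 6 spots. C232R115 was above background on 3 of 6 W/D arrays. It had -1.07, -0.74 and -0.14 in W/D and 0.02, 0.38 and 0.76 in Wa, a log2 fold change of -1.10 ± 0.23 (adjusted p = 0.00743), beside a Cy3 difference of -0.52. In the authors' deposited ratios it was -0.95 and without background correction -0.83, both below 2-fold, and the other actin spots had log2 fold changes as small as -0.02. The mean level of the 7 muscle marker spots ranged between -2.51 and -0.65 in W/D fish and between -1.53 and -0.86 in Wa fish.

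Hemoglobin subunits are the oxygen carriers of red blood cells. Of the 24 tested hemoglobin and heme spots, 22 had a positive and 2 a negative log2 fold change, with a median of 0.39. Among all 436 tested spots with a description, 245 were positive. The 24 held 11 spots of hemoglobin subunit beta and 6 of beta-1, so that the count mostly repeats these descriptions. Only 1 of the 24 was called higher and 1 lower. Hemoglobin subunit alpha-D had -0.33, 0.08 and 0.98 in W/D and 0.35, 1.98 and 2.77 in Wa, a log2 fold change of -1.42 ± 0.32 (C062R154, adjusted p = 0.0174). Its signal was above background on 3 of 6 W/D and 5 of 6 Wa arrays. The W/D fish was higher on 2 of 6 slides, and the adjusted p was 0.0627 without Wa replicate 5 and 0.0558 with W/D and Wa alone in the fit. Hemoglobin subunit beta-1 was higher at 1 of 6 tested spots (C235R126, 1.25, adjusted p = 0.00659, 5 W/D fish, and 0.103 in the Cy5 channel alone), with 0.50 to 0.80 at the others. None of the 11 hemoglobin subunit beta spots was called (-0.04 to 0.64). The mean level of the 22 red blood cell marker spots, with 21 of them above background on all 12 arrays, lay between -0.07 and 0.78 in W/D and between -0.24 and 0.27 in Wa, so that the groups overlapped. The mean level of the 5 B cell marker spots, none of which was called, lay between 0.48 and 0.88 in W/D and between 0.49 and 0.95 in Wa. Trypsinogen, a pancreas marker, gave 0.41 and was not called. The part of blood left in the liver was not tested.

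A transposase of the Tc1 family, an enzyme that moves a DNA transposon, was higher in W/D at 2 of 3 spots. C128R041 had -1.03, 1.80 and 2.11 in W/D and -1.54, -0.63 and -0.22 in Wa, a log2 fold change of 2.01 ± 0.41 (adjusted p = 0.0066). Only W/D replicate 6 lay within the Wa range. C086R032 gave 1.64 (adjusted p = 0.0241), which was lost without any of 6 of the 12 fish, and the third spot -0.35 (adjusted p = 0.5).

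Spots with no gene description were among the largest decreases. C039R070 had -1.30, -0.71 and 0.19 in W/D, against 1.05, 1.73 and 2.04 in Wa, a log2 fold change of -2.30 ± 0.31 (adjusted p = 1.97e-05) with the groups apart. At C110R167 the levels were -3.90, -3.00 and -2.72 in W/D and -2.56, -0.89 and -0.02 in Wa. This spot was above background on 2 of 6 W/D arrays, its log2 fold change was -2.13 ± 0.54 (adjusted p = 0.0391), and the call was lost without any of 10 of the 12 fish and under 4 of the planned settings, among them the deposited ratios (adjusted p = 0.0891). Highest among the higher ones was C104R105, with -1.19, -0.11 and 0.42 in W/D and -2.53, -1.83 and -1.40 in Wa (1.59, adjusted p = 0.011). Its call was lost in the authors' deposited ratios (adjusted p = 0.1), with the median of the pixels (0.0524) and with the methods' test (0.0544).

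By gene group, against the 15.1% called among all tested spots with a description, 5 of 11 lectin and galectin spots were higher and 2 lower, with a median log2 fold change of 0.96. Of 18 spots for other secreted defence and acute-phase proteins 7 were higher, with a median of 0.88. The 7 came from 4 of 13 descriptions, with 3 spots of lysozyme C II and 2 of leukocyte cell-derived chemotaxin 2. In this group 5 spots had a negative log2 fold change, among them ependymin (-1.21 to -0.39), and none of these was called. Complement had 3 higher of 6, all of them C3-1, and a median of 1.29. The 24 ribosome and translation spots held 5 higher and 6 lower ones, all 6 of translationally-controlled tumor protein, and had a median of -0.56. That protein alone had 8 of the 24 spots, all negative (-1.38 to -0.92), and so weighs on this median. In all, 9 of the 24 were positive and 15 negative. Among 53 glutathione, redox and detoxification spots 3 were higher and 4 lower, and their median was 0.29. Below that share, as were the redox spots, were lipid metabolism and transport (1 of 18), the respiratory chain with ATP synthase and pyruvate import (1 of 15) and hemoglobin and heme (2 of 24). No protein folding or proteasome spot was called of 22, with a median of 0.29. For all tested spots with a description the median was 0.16. The groups were assembled with earlier results of these data known, so that their counts are descriptions.

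The levels of the same mRNAs in D and Ws place those of W/D. Relative to D, W/D differed for 65 of the tested oligos (0.742%), among which were 3 of the 81, and Wa relative to Ws for 77 (0.879%), among which were 15 of the 81. These comparisons share the W/D or the Wa arrays with the first, so that nothing is read from the counts and the values are set side by side. Solute carrier family 28 member 3 averaged 3.32 in W/D, 3.48 in D, 0.06 in Wa and -0.27 in Ws, and W/D minus D was -0.15 (adjusted p = 0.899). Fucolectin-4 averaged 2.63 in W/D, 2.41 in D, 0.22 in Wa and 0.11 in Ws, with W/D minus D of 0.21 (adjusted p = 0.759). The wild averages of both are uncertain, since few wild signals were above background. These were 2 of 6 Wa and 1 of 6 Ws arrays for the transporter, and 1 of 6 Wa and 2 of 6 Ws arrays for fucolectin-4. The D fish ranged between 2.40 and 4.26 for the transporter and held all of its W/D fish within their range.

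Saxitoxin and tetrodotoxin-binding protein 2 was higher in W/D than in both D and Wa. Its D fish lay between -2.05 and -0.76, below all W/D fish, and W/D minus D was 1.83 ± 0.44 (adjusted p = 0.0321). Its Ws fish spread between -2.68 and 1.58, around the W/D range of -0.46 to 1.22, and W/D minus Ws was 1.46 (adjusted p = 0.0634). UDP-glucuronosyltransferase 2A1 was higher in W/D than in D, by 1.88 (adjusted p = 0.00614, 4 D fish with a value), where D averaged -2.99, and lower than in Wa. C110R167 was lower in W/D than in D by 3.41 on the log2 scale (adjusted p = 0.000671), with D fish between -0.46 and 0.83, and this spot was lower on average in W/D than in Ws as well (-2.56, adjusted p = 0.00622). Its Ws fish spread between -3.39 and 0.98, and Ws replicates 4 and 5, at -3.39 and -2.72, were as low as W/D fish. Few of its W/D signals were above background, so that the sizes of these differences are uncertain.

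For other members the mean of Wa differed from that of the older Ws fish, though single fish of these groups often overlapped. Complement C3-1 at C138R093 averaged -0.09 in W/D, 0.25 in D, -2.27 in Wa and -0.21 in Ws. Wa minus Ws was -2.06 (adjusted p = 0.000822), and W/D minus Ws was 0.12 (adjusted p = 0.901). The C3-1 spots were not alike in this. At C097R144 the Wa fish, at -1.42 or lower, were also below all Ws fish, at -1.35 or higher. At C262R149 the Wa fish (-1.59 to -0.50) lay within the Ws range (-2.27 to 1.05). There the D fish (1.40 to 2.29) lay above all W/D fish (-0.19 to 1.20). The lectin domain spot C024R164 averaged -0.03 in W/D, -0.42 in D, -2.10 in Wa and -0.21 in Ws, with Wa minus Ws of -1.89 (adjusted p = 0.00661). Its highest Wa fish, at -0.85, lay above its lowest Ws fish, at -1.09. At the TFIIF alpha domain spot C256R062 Wa minus Ws was -1.61 (adjusted p = 0.0377) and W/D minus Ws was 2.32 (adjusted p = 0.000834). Its Ws fish spread between -2.80 and 1.07, around all Wa fish (-2.67 to -2.33) and into the W/D range. At the MIP-T3 domain spot C169R119 these differences were -1.60 (adjusted p = 0.0475) and 2.59 (adjusted p = 0.000763). Its Wa fish (-3.01 to -2.42) also lay within the Ws range (-3.12 to 0.64). Thioredoxin-interacting protein was above background on 4 W/D, 0 D, 6 Wa and 0 Ws arrays, so that its differences from D and Ws are not given. For tripartite motif-containing protein 16, Wa minus Ws was 1.90 (adjusted p = 0.011) and W/D minus Ws was -0.35 (adjusted p = 0.727). Its Wa fish (0.08 to 3.86) overlapped its Ws fish (-0.54 to 1.96). Lysozyme C II (C099R149) was higher in W/D than in Ws, by 1.88 (adjusted p = 0.00594). Ws fish reached W/D levels at other defence spots. At the chemotaxin spot C164R142 a Ws fish, at 3.08, exceeded every W/D fish. Plasminogen had -1.31 to 1.57 in Ws, and W/D minus Ws was 1.20 (adjusted p = 0.0886). For ribosomal protein S5 it was 1.29 (adjusted p = 0.11), with 5 Ws fish between -0.69 and 2.15. A p that misses the threshold does not show that W/D and Ws had the same level.

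**Figure D4:**
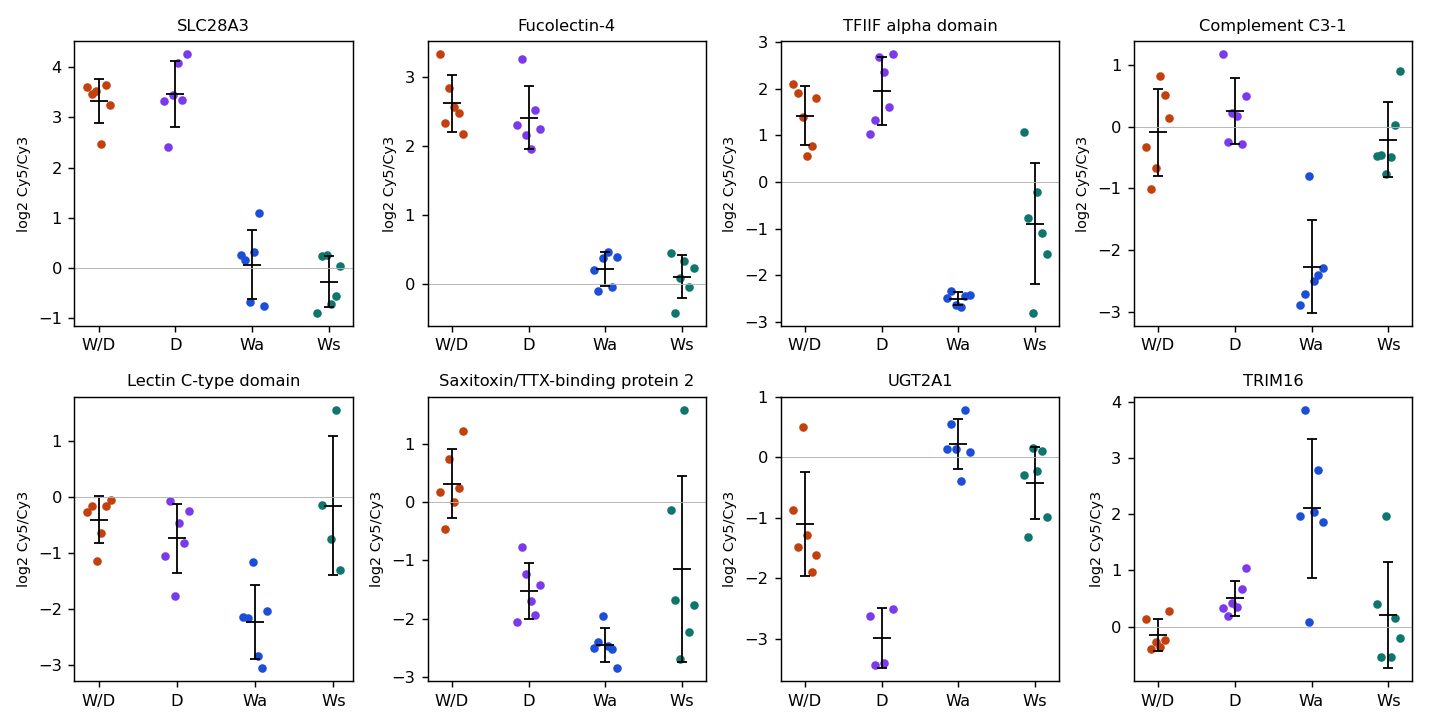
Log2 Cy5/Cy3 of single fish in W/D, D, Wa and Ws for 8 called spots, with mean and SD bars, on a scale of its own in each panel. SLC28A3 (C216R135) averages 3.32 in W/D and 3.48 in D, and lies near 0 in both wild groups. There its signal was above background on 2 of 6 Wa and 1 of 6 Ws arrays. Complement C3-1 at C138R093, 1 of its 3 spots, averages -2.27 in Wa and between -0.21 and 0.25 in the other groups.

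Some of the widest differences between the group means were not called, and at these the W/D fish differed widely among themselves. The lipocalins, a family of secreted carriers of small hydrophobic compounds, had 5 tested spots with log2 fold changes between -2.10 and -0.69 and adjusted p between 0.0805 and 0.176. At the chondrogenesis associated lipocalin spot C062R003 the W/D fish 1 to 6 had 2.06, -0.26, 3.40, 1.89, -1.07 and -0.40, whereas the Wa fish had 3.20, 4.33, 1.43, 2.33, 3.34 and 2.71. W/D replicates 1, 3 and 4 lay within the Wa range and the others below it. W/D replicates 2, 5 and 6 were also below all Wa fish at C069R130, C159R067 and at the lipocalin spot C106R052, where W/D fish 1 to 6 had 1.92, 0.04, 3.97, 2.17, -1.36 and -0.23. The SD over W/D fish at these 4 spots was 1.76 to 2.22, where the median over all tested oligos was 0.39. D fish had -4.49 to -1.44 at C106R052. At the fifth spot, C176R044, the W/D fish lay close together, between -0.89 and -0.47, below the Wa fish, between -0.27 and 0.24 (log2 fold change -0.69, adjusted p = 0.0896, 5 W/D fish).

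Pregnancy zone protein, which traps proteases in plasma, showed a similar spread. Its spot C063R008 had 0.74, 5.21, 5.44, 0.02 and 4.88 in W/D fish 1, 2, 3, 5 and 6, the spot of W/D fish 4 being under the quality flag, and between -0.29 and 0.84 in Wa. W/D fish 2, 3 and 6 were high and the others lay within the Wa range, and the log2 fold change was 2.94 ± 0.79 (adjusted p = 0.0603). Of the D fish, replicates 1 and 4 had 4.05 and 4.02 and the others between -0.64 and 0.87, while no Ws fish exceeded 0.31. The W/D fish with a high level of this mRNA were not those with a low level of the lipocalins throughout, since replicate 3 was the highest for both.

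**Figure D5:**
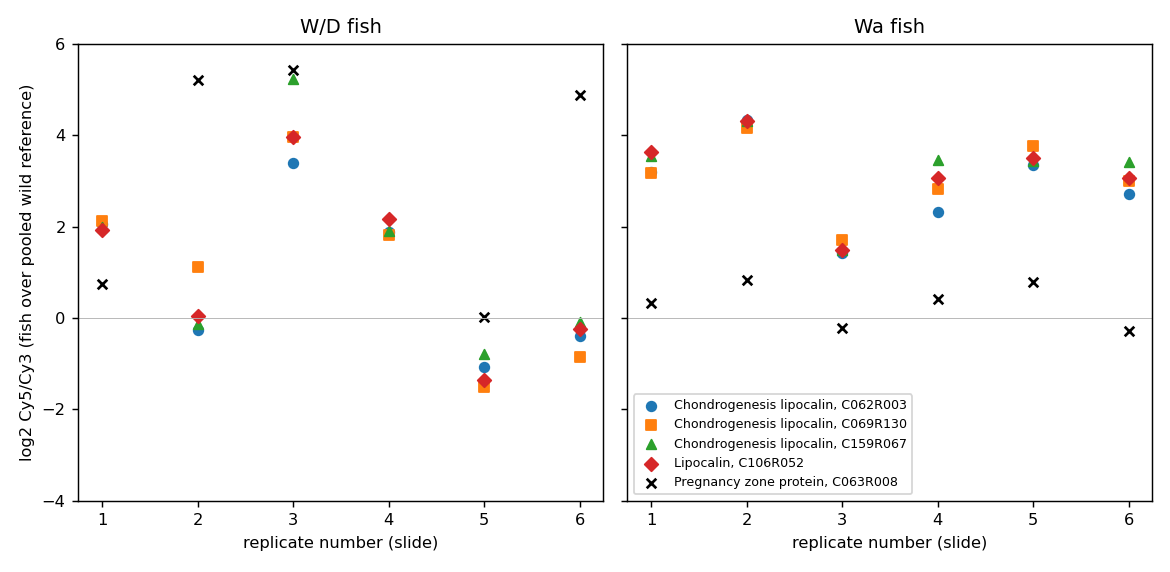
Log2 Cy5/Cy3 of the 6 W/D fish (left) and the 6 Wa fish (right), by replicate number, at 4 lipocalin spots and the pregnancy zone protein spot. The 4 lipocalin spots move together from fish to fish, and pregnancy zone protein is at 5.21, 5.44 and 4.88 in W/D fish 2, 3 and 6.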

How the data were processed

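Liver RNA of 24 rainbow trout was hybridised against a wild reference pool on a 2-colour oligo-array. The authors deposited, without normalization, the intensity of each spot in both channels (signal mean and local background median are used here) with a quality flag, and log2 ratios after LOWESS normalisation, with every oligo centred on its median. The version of the scanning software is not given in the sources used here. From the intensities, background was corrected by normexp (offset 50) and log2 ratios of Cy5 over Cy3 were loess-normalised within arrays in R 4.3.3 with limma 3.58.1. Quality-flagged spots were set to missing unless they were saturated, and control spots (1531) had no weight. Tested oligos had unflagged Cy5 signals of 300 or more on every array of 1 group or more, and a value in each group. The channel order was checked: the fish channel varied more between groups than the pool channel (median variance 0.0378 against 0.0137), and rebuilt ratios correlated with the deposited ones at 0.865 or more on every array.

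limma was fitted to 4 group means, with p-values two-sided and adjusted over all 8764 oligos. Called means a change of 2-fold or more with an adjusted p not above 0.05. Samples were numbered 1 to 6 per group in the labels. The title of D replicate 6 repeats the fish code of D replicate 4, while their descriptions carry different codes, so that whether D held 6 separate fish is not settled. The fit without D is given among the alternatives. The procedure was tested on simulated data. Names come from the study's descriptions of listed spots. Levels of all fish are summarised for the 15 highest and 10 lowest called descriptions, taking the spot with the largest change of each. Further spots were named within the gene groups, and the lipocalins and pregnancy zone protein were singled out after their values were seen. The members and gene groups were chosen with earlier results of these data known.

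Same-numbered fish shared a slide, by the series' design text and the code numbers in the labels. The deviations of same-slide W/D and Wa fish correlated between -0.14 and 0.132 across oligos.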

Additional observations from a re-analysis of the deposited data

Results flagged for a closer look

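Of the 50 sets of 6 or fewer fish behind the 25 descriptions given by fish, 4 held a fish far from the others by Dixon's ratio at the 5% level. Chance would flag about 5% of independent sets, but these sets share the same fish, so that nothing is read from the count. For solute carrier family 28 member 3 (C216R135), W/D replicate 4 was at 2.47, with the next W/D fish at 3.24 and the highest at 3.64. For complement C3-1 (C138R093), Wa replicate 3 was at -0.80, with the next Wa fish at -2.29 and the lowest at -2.90. This fish was also the highest Wa fish for lysozyme C II (C099R149, 0.57) and leukocyte cell-derived chemotaxin 2 (C134R121, -0.50). The same held for the lectin domain spot C024R164 (-0.85) and ribosomal protein S5 (C196R002, 0.95), but not for plasminogen. The spread of these members between fish was therefore partly shared. For the Tc1 transposase (C128R041), W/D replicate 6 was at -1.03, with the next W/D fish at 0.97 and the highest at 2.11. For galectin-2 (C259R028), W/D replicate 4 was at 0.17, with the next W/D fish at -0.35 and the lowest at -0.65. All 4 spots kept their call without the fish named.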

How the results depend on the processing

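The number of oligos called in W/D relative to Wa stayed within 1.5 times of 81, between 70 and 108, under every planned setting with all fish except one. With a Cy5 signal of at least 300 required on all 24 arrays, 4334 oligos were tested and 18 were called, 10 higher and 8 lower. Of the 81, 61 were not tested there, 0 of the rest differed from D and 2 differed between Wa and Ws. The lower oligos numbered 42 with no filter on low signals and 40 with the median of the pixels. Of the 81, 1 differed between W/D and D in the authors' deposited ratios. The higher share was 60.2% in those ratios and 67.9% in the main values. With the slide as a replicate block 84 oligos were called, 59 higher and 25 lower, including 77 of the 81. The block ended the calls of C049R053, galectin-9 (C070R081), galectin-2 (C063R114) and translationally-controlled tumor protein (C086R090), and no other. The methods' one-way ANOVA with a Tukey test called 79 oligos, 73 of the 81 among them. A similar total did not mean the same oligos, and fewer of the 81 kept their call under other settings. In the Cy5 channel alone 59 of the 81 were called, without background correction 62 and in the authors' deposited ratios 65. With median centring 66 of them were called, and with W/D and Wa alone in the fit 68.

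Leaving out 1 fish of W/D or Wa gave 58 to 83 called oligos, 41 to 57 higher and 17 to 34 lower, and 45 of the 81 were called every time. W/D differed from D for 2 to 4 of the 81 then, and Wa from Ws for 11 to 18. Only 36 of the 81 were called in all of these leave-outs and also under every planned setting in which they were tested. Alternatives chosen after seeing the data were the removal of 1 slide at a time (59 to 75 called, 14 to 29 lower, and 8 to 21 of the 81 differing between Wa and Ws), saturated spots set to missing (81 called) and the fit without D (77 called). No called oligo changed direction under any planned setting or leave-out. Signals near background limit the fold changes of the dimmest members, and 6 arrays per group limit all of them.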
